A study of Homo sapiens with 151 samples.

Results

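The ChIP-seq peak list of STAT5A, a transcription factor that carries cytokine signals to DNA, was examined in HepG2 cells, a human liver cancer line. It is the list of the sample titled STAT5A, and it held 17173 of the 1471857 peaks in the 127 deposited lists, 1 list for each DNA-associated protein (DAP). The other 24 samples of the series are inputs made without an antibody. STAT5A carried a FLAG epitope, placed at the endogenous gene by the CETCh-seq method, and was pulled down with the monoclonal Anti-FLAG M2 antibody after crosslinking in 1% formaldehyde, with SL348722 and SL339631 as inputs. The labels name no cytokine, hormone or other treatment, and whether the cells were stimulated is not stated there. There is 1 list for STAT5A and no replicate list, so intervals below are 95% Wilson intervals that cover counting error only, and differences between shares of peaks carry no test. Signal, the enrichment value of a peak in its list, ran from 13.3 to 609.9 with a median of 56.1.

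Growth hormone, prolactin, erythropoietin and many interleukins act through receptors that have no kinase of their own and rely on JAK kinases. These phosphorylate STAT proteins, which then pair, enter the nucleus and bind a palindromic DNA element, TTC and GAA separated by 3 bases. STAT5A and its close relative STAT5B are best known in liver for growth hormone responses and in blood cells and mammary gland for survival and differentiation. CISH and the SOCS genes, which shut the pathway down again, are classical targets. Here a STAT site means TTCNNNGAA and a strict STAT site TTCCNGGAA, each its own reverse complement, so that a match on one strand is a match on both. Every strict site is also counted as a STAT site. In the RefSeq promoter sequences (GRCh38.p14, 250 bases before to 50 after each start), 7.66% held a STAT site and 1.15% a strict one.

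The 2 windows printed next show a promoter of the list where the element is present. The first is centred on the STAT5A summit in the promoter of CISH, and the second lies farther upstream in the same promoter. Both are the plus strand of hg38, written 5′ to 3′, with the bases of STAT sites in capitals.
CISH summit, chr3:50611826-50611926: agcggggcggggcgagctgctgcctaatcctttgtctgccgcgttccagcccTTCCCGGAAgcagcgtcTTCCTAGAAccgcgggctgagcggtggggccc
CISH upstream pair, chr3:50611991-50612019: cagatTTCCAAGAActTTCCAGGAAaacg
CISH, transcribed from the minus strand, has its summit 102 bp upstream of the canonical TSS and 4 STAT sites, 2 of them strict, within 500 bp of it. By signal its peak was one of the weakest of the list, with 14.7 at rank 17054. Its score from the authors was 1000, the highest in the list, which 5335 of the 17173 peaks had.

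Close to 1 in every 2 STAT5A peaks lay at a promoter. Of 17173 summits, 8471 (49.3%, interval 48.6 to 50.1) lay within 500 bp of the TSS of a canonical protein-coding or lncRNA transcript in GENCODE 44. The share was 54.2 ± 11.6% over the 22 autosomes (mean ± SD, a spread over chromosomes, not replicates). A further 24.1% of summits lay in introns, 18.2% between genes and 8.36% in exons. Promoter summits sat mostly just inside the gene: 70.9% were downstream of the TSS, with a median position of 93 bp and quartiles at -31 and 201 bp. Of those promoter summits, 83.2% were nearest to a protein-coding TSS. Cut to the same number of strongest peaks, the 29 other lists that were at least as long as STAT5A's had promoter shares of 14.7% in ZNF865 to 57.0% in ZFP91, with a median of 41.3%, and 5 of them were higher than STAT5A.

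The strongest peaks were the most promoter-bound. Ranked by signal and divided into 10 equal groups (deciles), the list had its highest share at the top: in the strongest decile, with signals above 90.3, 76.8% of summits (interval 74.7 to 78.7) were at promoters. The share fell with each decile to 30.98% (28.8 to 33.2) in the eighth. It was then 40.01% (37.7 to 42.3) in the ninth and 38.5% (36.2 to 40.8) in the last, so the weakest peaks did not continue the decline. Among the 1000 strongest peaks 77.8% were at promoters, a share that 3 of the other 126 lists exceeded when cut in the same way, THAP1 most with 86.8%. The share of summits that no other list held moved the opposite way, from 0.0582% in the strongest decile to 37.4% in the eighth, with 32.2% in the ninth and 38.5% in the last. Width and score also changed along the ranking. The median width was 343 bp in the strongest decile and 584 bp from the third decile on. This was a step to a shared width and not a gradual broadening, since 70.9% of all STAT5A peaks were exactly 584 bp wide. At the named peaks of this width the summit was the midpoint, and whether such summits were located individually was not tested. The median of the authors' score fell from 1000 to 603 in the eighth decile and was 666 in the last.

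**Figure D1:**
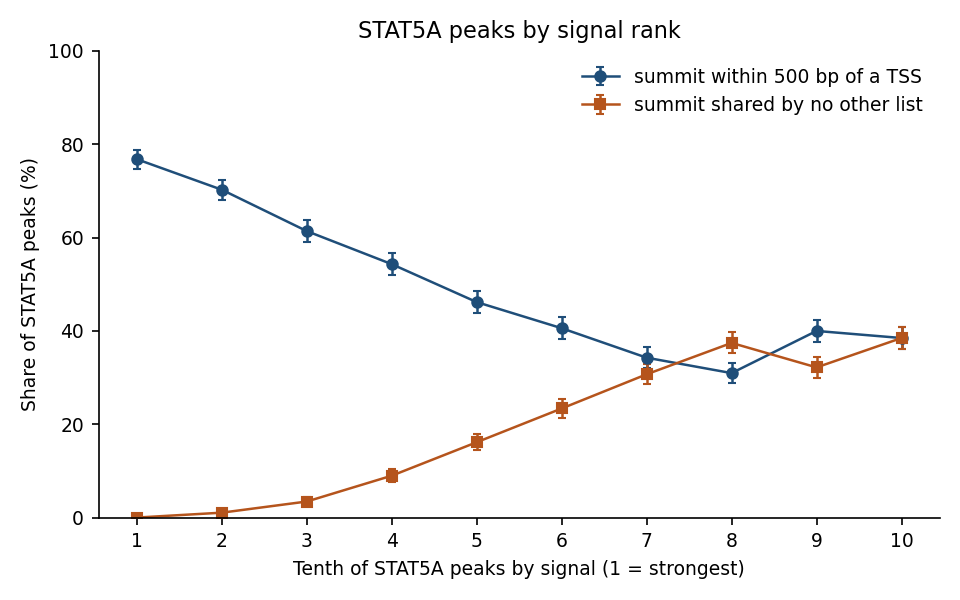
Share of STAT5A peaks (%) whose summit lay within 500 bp of a canonical TSS (blue circles) and whose summit was shared by no other list within 50 bp (orange squares), by decile of the list ranked by signal (1 is the strongest); bars are 95% Wilson intervals. The promoter share falls from 76.8% to 30.98% by the eighth of 10 groups and stands at 40.01% and 38.5% in the last ones, while the unshared share goes from 0.0582% to 38.5%, with a dip to 32.2% in the ninth.

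Peaks away from promoters were concentrated on a few chromosomes. Chromosome 20 held 20.2 such peaks per Mb, chromosome 16 held 11.9, chromosome 17 held 11.3 and chromosome 19 held 7.95, and each other chromosome was below 4.3 per Mb. The X chromosome had 44 peaks in all. Only 25.3% of the 1746 peaks on chromosome 20 were at promoters, the lowest share of any autosome, against 67.7% on chromosome 3, the highest. Chromosome 20 took 10.2% of all STAT5A peaks and chromosome 16 took 9.56%, in each case more than in any of the 29 other lists of at least the same length, whose shares reached 7.65% and 8.15%. Chromosome 14, with 4.45% against at most 4.44%, was also above them. Chromosomes 17 and 19 were not: 3 and 7 of the 29 lists had larger shares there than STAT5A's 9.05% and 5.67%. HepG2 cells are known to carry extra copies of several chromosomes, chromosomes 14, 17 and 20 among them, and this is not a full list. Copy number was not measured here and its part in these counts was not tested. Without chromosomes 16, 17 and 20, chosen after their values were seen, the promoter share was 56.0%, and the fall by signal was again from the strongest decile to 37.2% in the eighth, with 44.9% in the last.

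**Figure D2:**
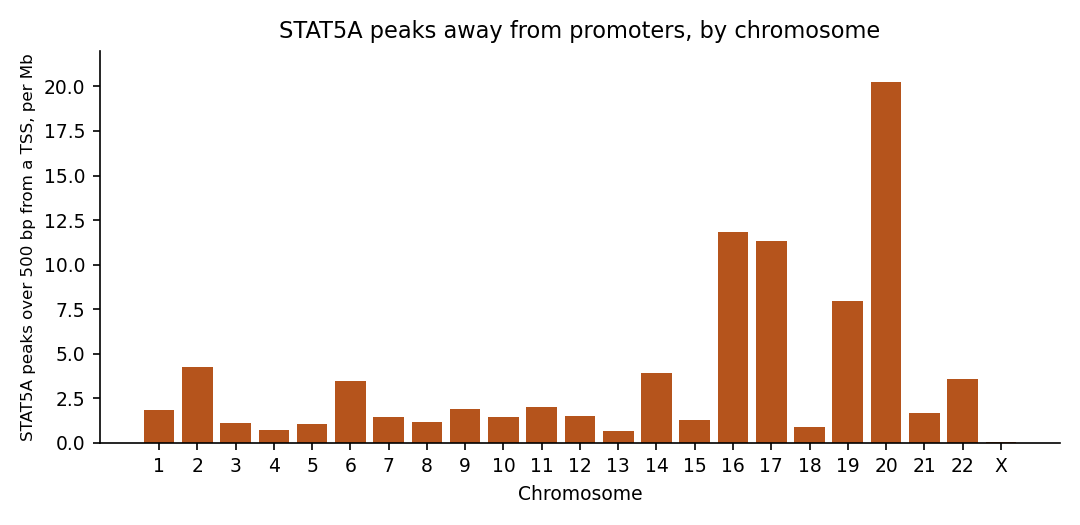
STAT5A peaks with a summit over 500 bp from a canonical TSS, per Mb of each chromosome (bars from 0; the Y chromosome had no peak). Chromosome 20 stands highest at 20.2 per Mb, followed by chromosomes 16 and 17.

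The element that STAT proteins bind was rare at STAT5A summits. A STAT site lay within 50 bp of 198 of 17173 summits, or 1.15% (interval 1.00 to 1.32). In windows of the same 101 bp centred 500 bp to either side the share was 2.38% (2.22 to 2.54), and on 21 of the 22 autosomes the summit share was the lower one. Over those autosomes the share was 1.08 ± 0.514% at summits and 2.37 ± 0.681% in flanks (mean ± SD over chromosomes). Strict sites were found at 40 summits, or 0.233%, and in 0.271% of flanks. Nearly all summits thus had no STAT site within 50 bp, and the comparison with flanks changed once base composition was taken into account.

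Without weighting for base composition, the STAT site share did not follow peak strength. By decile of signal it was lowest at 0.757% (interval 0.443 to 1.29) in the sixth decile and highest at 1.51% (1.03 to 2.21) in the last, and the intervals of these 2 deciles overlap. In the strongest decile it was 0.931%, and in the 1000 strongest peaks 6 summits held a STAT site. Promoter and other summits were alike in this, with 1.11% and 1.195%. Nor was the share higher where STAT5A stood alone: it was 1.12% at summits that no other list held and 1.37% at those held by over 40 lists. When every list was cut to at most 17173 peaks, 120 of the other 126 had a higher STAT site share than STAT5A, including all 29 at least as long. NCOA2, a nuclear receptor coactivator, had the highest with 4.51%, followed by EP300, a histone acetyltransferase, with 3.36%, and the median of the 126 was 1.84%.

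Base composition moved with these shares. Of summits with 50 to 60% GC, 2.64% held a STAT site, against 1.23% at 60 to 70% and 0.641% at 70 to 80%. Mean GC was 69.9% in the strongest decile and 65.0% in the last. It was 69.6% at promoter summits and 65.6% at others, 64.2% at unshared summits and 69.8% at those held by over 40 lists. The comparisons by decile, place and sharing were not made at equal GC content. The 101 bp about STAT5A summits had a mean GC content of 67.6%, against 54.7% in the flanks, and of the other lists only that of ZNF593 was richer, at 68.9%. When flank windows were weighted to the GC content of the summit windows, in classes 5 percentage points wide, the flank share of STAT sites became 1.03% in place of 2.38%, against the 1.15% at summits, a ratio of 1.12. The same ratio in the other lists had a median of 1.12 too, with 62 lists above STAT5A and 64 below. For strict sites the ratio at equal GC was 1.14 in STAT5A, and 93 of 125 other lists had a higher one. At equal GC content, summits therefore held about as many STAT sites as flanks. STAT5A was in the middle of the lists for STAT sites and below most of them for strict sites.

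The E-box CACGTG, read by basic helix-loop-helix proteins such as MYC and USF and present in 7.26% of RefSeq promoter sequences, was the commonest of the 20 motifs searched at STAT5A summits. It lay within 50 bp of 903 summits (5.26%, interval 4.93 to 5.60) and in 1.92% of flanks, 2.41% at the GC content of summits. All 22 autosomes had the higher share at summits. Unlike STAT sites, E-boxes followed signal: 10.3% of summits (8.95 to 11.8) in the strongest decile held one and 3.61% (2.83 to 4.60) in the last. By the number of other lists at a summit, the E-box share was 3.97% with none, 3.26% with 1 to 2, 2.82% with 3 to 5, 3.99% with 6 to 10 and 5.19% with 11 to 20. It was 8.40% with 21 to 40 and 20.5% with over 40. It was not particular to STAT5A, since 54 other lists had a higher share, led by MGA, itself a partner of MAX at E-boxes, with 12.7%. Of the promoter motifs, searched on both strands, the ETS motif CCGGAAGT lay at 1.01% of summits and in 0.571% of GC-weighted flanks. The YY1 motif AAGATGGCG lay at 0.635% and in 0.268%. RefSeq promoter sequences held them in 4.14% and 1.75% of cases. Those sequences are longer than the 101 bp windows, so their shares here cannot be compared directly with shares of summits or flanks. Other promoter motifs were rarer at summits than in GC-weighted flanks: the GC box GGGGCGGGG lay at 2.35% against 6.04%, the NRF1 motif GCGCATGCG at 0.309% against 0.445%, the CCAAT box motif AGCCAAT at 0.635% against 0.936% and the CRE TGACGTCA at 0.233% against 0.327%. In RefSeq promoter sequences these stood at 15.7%, 1.92%, 7.05% and 1.85%. Of motifs of factors active at liver enhancers, AP-1 (TGANTCA), FOXA (TGTTTAC) and HNF4 (CAAAGTCCA) stood at 1.205%, 0.477% and 0.128% of summits, against 1.17%, 0.377% and 0.124% of GC-weighted flanks. The HNF1 motif GTTAATNAT stood lower, at 0.0116% against 0.0739%. RefSeq promoter sequences held these 4 in 7.71%, 3.42%, 0.384% and 0.792% of cases.

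**Figure D3:**
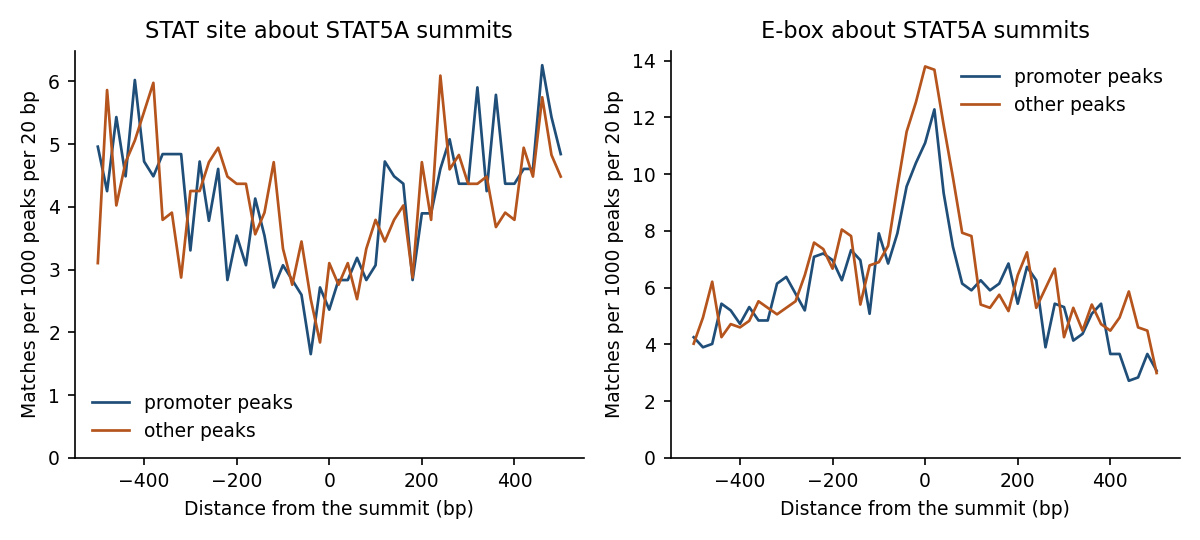
Matches of the STAT site (left) and the E-box (right) per 1000 STAT5A peaks in bins of 20 bp, by distance of the motif's centre from the summit (bp), for promoter peaks (blue) and other peaks (orange). STAT sites dip towards the summit, from 4.66 per bin beyond 300 bp to 2.60 within 30 bp over all peaks, where E-boxes rise from 4.66 to 12.3.

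Of the 198 summits with a STAT site, 37 were shared by no other list and 12 by over 40. These were 1.12% of the 3300 unshared summits and 1.37% of the 874 held by over 40 lists, near the 1.15% of all summits. The 10 strongest of the 198 ranked from 43 to 1235 in the list, and other lists cut to the same length had a summit within 50 bp at each, from 3 lists near ABHD12, a lipid hydrolase, to 89 at GTF3C3, a subunit of the RNA polymerase III factor TFIIIC. A set of 6 genes had such a summit in their promoter: GINS1, a subunit of the replicative helicase, with a signal of 195.2, TRIM44, with 176.6, GTF3C3, with 144.6, DNAH14, an axonemal dynein, with 115.9, TAF1B, a factor of RNA polymerase I, with 106.8, and NMI, with 101.8. NMI encodes a protein known to interact with STAT proteins, and its summit 61 bp downstream of the TSS held a strict site and was shared by 18 lists. ASXL1, a Polycomb-associated regulator, and ATP8B3, a phospholipid transporter, had their summits 853 and 686 bp from the TSS. The remaining summit of the 10, at rank 340 on chromosome 20, was 87735 bp from the nearest TSS, that of the lncRNA ENSG00000277581. A window without overlap to annotated untranslated regions shows a strict site that lies near the edge of the 101 bp.
ENSG00000277581 distal summit, chr20:39050157-39050257: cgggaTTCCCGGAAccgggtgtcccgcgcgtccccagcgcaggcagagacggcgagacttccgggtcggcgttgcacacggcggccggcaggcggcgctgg
ID1 downstream summit, chr20:31610740-31610840: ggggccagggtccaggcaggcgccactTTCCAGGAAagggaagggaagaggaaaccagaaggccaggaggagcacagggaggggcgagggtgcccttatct
The second window lies 5501 bp downstream of the TSS of ID1, an inhibitor of differentiation and one of the STAT5 targets below; its summit had a signal of 76.4 and was shared by 43 lists, and it was chosen after its values were seen.

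The strongest peaks of all were not particular to STAT5A. None of the first 10 held a STAT site, but with 1.15% of all summits holding one, 10 are too few to show a lack. The 10 strongest had signals of 289.6 to 609.9, and 103 to 125 of the 126 other lists had a summit within 50 bp of each. NPAS4, a transcription factor of neurons, lay nearest to the strongest, whose summit was 749 bp inside the gene, followed by INSM2 with a signal of 478.0 and XKR7 with 475.0. HTR5A, a serotonin receptor, and UNC5A, a netrin receptor, were also among the nearest genes, with ZFPM1, NKX1-1, RANBP3-DT and the lncRNAs ENSG00000264659 and ENSG00000286045. Over the whole list the median summit was shared by 6 other lists, and signal and sharing moved together, from a median signal of 47.1 where no list shared the summit to 97.1 where over 40 did.

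STAT5A summits that no other list held were largely away from promoters. There were 3300 of them (19.2%), of which 12.2% were at promoters, and 2729 (15.9%) were still unshared when the other lists were used whole. Overlap of whole peaks by at least 1 bp left 941 (5.48%) that touched no peak of another list. The 10 strongest, with signals of 81.5 to 95.05, lay nearest to DUSP22, CDKN1A, DLGAP4, ZNF267, ENSG00000260971, FAM138D, CMIP, SLC25A10, EGLN1 and CEP85L. None of the 10 held a STAT site, and 1.12% of the 3300 did. The CDKN1A summit, in an exon 5471 bp downstream of the TSS of this cell cycle inhibitor, had a signal of 89.6. EGLN1, the prolyl hydroxylase that senses oxygen, had its summit in an exon 925 bp downstream of the TSS, with 81.6. The windows at CDKN1A and EGLN1 are shown as the unshared summits of the 10 that lie in exons; neither was shared when the other lists were used whole, as was the case for 7 of the 10.
CDKN1A exon summit, chr6:36684135-36684235: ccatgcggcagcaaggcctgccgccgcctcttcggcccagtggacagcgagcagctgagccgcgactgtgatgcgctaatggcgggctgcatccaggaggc
EGLN1 exon summit, chr1:231421312-231421412: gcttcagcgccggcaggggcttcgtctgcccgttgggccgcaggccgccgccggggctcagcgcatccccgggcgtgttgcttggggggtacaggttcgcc

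Cytokine target genes were bound about as often as genes in general. Of 20 known STAT5 targets, 7 had a STAT5A summit within 500 bp of the canonical TSS (35.0%, interval 18.1 to 56.7), and of 20033 protein-coding promoters 6585 had one, or 32.9%. The 29 other lists of at least the same length, cut alike, held 4 to 11 of the same 20, with a median of 7. At the summit nearest to each TSS, CDKN1A had the strongest signal, 104.3 at 184 bp from the TSS, followed by ID1 with 84.6, the apoptosis inhibitor MCL1 with 63.6 and the growth regulator MYC with 60.9. By signal the pathway's own inhibitors came later: SOCS1 had 33.1 and CISH 14.7, with BCL2L1, an apoptosis inhibitor, between them at 22.7. The authors' scores were 1000 at CISH, 760 at BCL2L1 and 606 at SOCS1. They were 1000 at CDKN1A and ID1, 961 at MCL1 and 768 at MYC. Among the 7, CISH alone had a STAT site within 50 bp of its summit, as 1.11% of all promoter summits did. All 7 promoters were bound in many lists, from 37 of the 126 whole lists at MCL1 to 90 at ID1.

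The 13 targets without a promoter summit differed widely in distance. Within 10000 bp lay the summits of PIM1, a survival kinase, at 616 bp, SOCS3, a feedback inhibitor, at 841 bp, CCND1, a G1 cyclin, at 1885 bp, BCL6, a transcriptional repressor, at 5411 bp and IRF1, an interferon regulatory factor, at 5999 bp. With them, 12 of the 20 had a summit within 10000 bp (46.3% of all protein-coding genes did). The SOCS3 summit lay 7 bp from another start of this gene in RefSeq, which is not its canonical TSS. IGFALS, which carries IGF1 in blood, lay 20625 bp from the nearest summit, IL2RA, a chain of the interleukin-2 receptor, 27333 bp, OSM, a cytokine, 59905 bp and PIM2, the other survival kinase, 83099 bp. The growth hormone target SOCS2 was 104952 bp from a summit, DUSP5, a phosphatase, 174303 bp, CCND2, a G1 cyclin, 246200 bp and IGF1, the main growth hormone target of liver, 344063 bp. Few or no other lists were at the promoters of these last 4, with 8 at DUSP5 and none at SOCS2, CCND2 and IGF1. STAT sites did not sort the targets: 11 of the 20 had one within 500 bp of the TSS, of which 3 were bound. Over all protein-coding genes, 18.1% of bound promoters and 21.4% of unbound ones had a STAT site in that window.

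The JAK-STAT components, which carry or restrain the signal, had summits at 11 of 21 promoters (52.4%, interval 32.4 to 71.7), against the 32.9% of all protein-coding genes and 5 to 14 of 21 in the other lists, with a median of 10. Signals here are those of the summit nearest to each TSS. The tyrosine phosphatase PTPN1, which acts on JAK2 and TYK2, had 125.6. GRB2, an adaptor, had 72.0, PTPN11, a phosphatase that couples receptors to RAS signalling, 61.6, PTPN2, a phosphatase of JAK1 and JAK3, 59.5, and the kinase TYK2 59.3. The STAT inhibitors PIAS4 and PIAS1 had 57.9 and 54.8, STAT4, an interleukin-12 effector, 54.9, STAT5B 52.6 and STAT3, the interleukin-6 effector, 46.9, though a stronger STAT3 promoter summit with 69.8 lay farther from the TSS. STAT4 differed from the others in that 2 other whole lists were at its promoter, where the other 10 promoters had 26 to 96. None of the 11 had a STAT site within 50 bp of the summit nearest to its TSS, where 1.11% of all promoter summits had one. JAK1, JAK2 and JAK3 had no promoter summit.

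STAT5A, STAT5B and STAT3 lie side by side on chromosome 17. STAT5A had no summit within 500 bp of its TSS at 42288498: the nearest lay 1035 bp upstream, with a signal of 55.4, and no other list shared it. A second summit, 544 bp beyond the end of the canonical STAT5A transcript at 42311943, had a signal of 105.4 and was shared by 16 lists. STAT5B had one promoter summit, 409 bp upstream, shared by 21 lists, and another 610 bp upstream. STAT3 had 3 within 500 bp, with signals of 46.9, 47.8 and 69.8, of which the strongest, 311 bp upstream, was shared by 53 lists.

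Of the 20 cytokine receptor genes, 7 had a promoter summit (35.0%, interval 18.1 to 56.7), against 32.9% of all protein-coding promoters, with 2 to 9 in the other lists. IFNGR1, an interferon-gamma receptor chain, had a signal of 115.4 and IFNAR1, a type I interferon receptor chain, 71.0. IL4R had 66.2, the shared chain IL6ST 63.5, the leptin receptor LEPR 56.5, LIFR 48.4 and GHR, the growth hormone receptor, 45.2. The acute phase genes, which liver cells turn on in inflammation, had 2 of 20 (10.0%, interval 2.79 to 30.1, below the same 32.9%): AGT, the angiotensin precursor, with 69.3, and LBP, a lipopolysaccharide carrier, with 47.5. The other lists held 1 to 14 of these 20 with a median of 5, and 25 of the 29 held more than STAT5A. The interferon response genes had 3 of 20 (15%, interval 5.24 to 36.0, with the 32.9% inside it), and a median of 4 in the other lists: B2M, the light chain of class I molecules, with 75.4, PSMB9, an immunoproteasome subunit, with 42.0, and TAP1, a peptide transporter, with 35.9. PSMB9 and TAP1 are neighbours transcribed away from each other, and their summits belong to 2 peaks that do not overlap, the first shared by 19 lists and the second by 2. None of these 12 promoters had a STAT site at the summit, where 1.11% of all promoter summits had one.

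**Figure D4:**
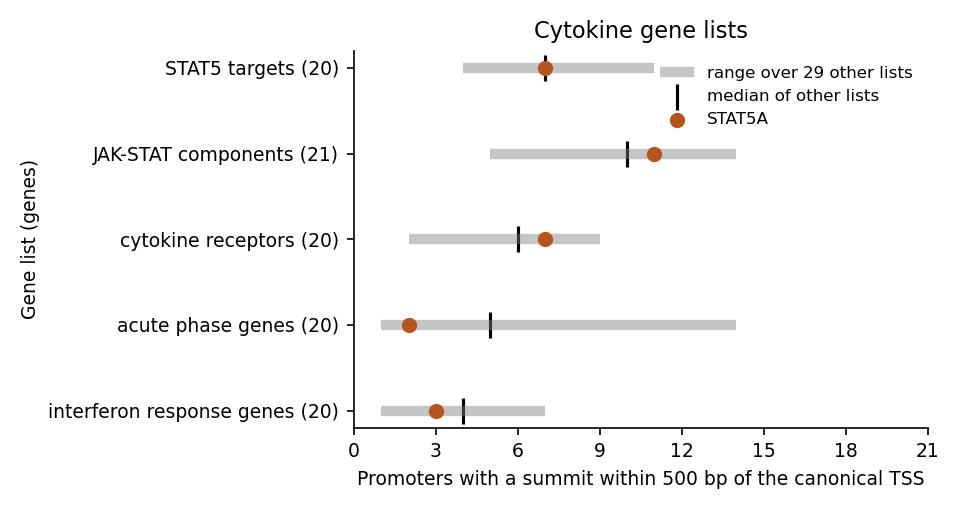
Number of promoters with a summit within 500 bp of the canonical TSS in 5 gene lists (genes in each given in parentheses), for STAT5A (orange) and for 29 other lists cut to the same length (grey range, black bar at the median). STAT5A is at the median for its known targets, with 7 of 20, and below it for acute phase genes, with 2 of 20.

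Which promoters STAT5A used went with how many other DAPs used them. Among protein-coding promoters in no other whole list, 29 of 6759 (0.429%) had a STAT5A summit. The share was 7.93% where 1 to 10 other lists were present, 33.95% for 11 to 30, 68.1% for 31 to 60 and 91.4% for 61 or more. Promoters with a STAT5A summit were in a median of 47 other lists and those without one in a median of 0.

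ZFP91, SRY and ZNF74 shared the most sites with STAT5A. With every list cut to at most the 17173 strongest peaks, ZFP91, a zinc finger protein and ubiquitin ligase, had a summit within 50 bp of 21.3% of STAT5A summits, SRY, an HMG box factor, of 21.2% and the zinc finger protein ZNF74 of 21.2%. Their own lists were shared to 21.3%, 21.4% and 21.5%. ZNF701 followed with 20.6%, the Polycomb-type reader L3MBTL4 with 19.98% (23.3% of its shorter list), GLYR1, a nucleosome-binding protein, with 19.2%, the forkhead factor FOXC1 with 19.2%, the corepressor RCOR3 with 16.7%, SMAD7, an inhibitor of TGF-beta signalling, with 16.6% and MGA with 16.6%. The first 3 lie close together, and the list at the top changed with the settings. Each of the 10 shared promoter summits more than other summits, as ZFP91 did with 29.7% against 13.2%. ZNF74 shared the most of the other summits, 16.4%. At the low end among lists of at least the same length were ZNF865 with 5.03%, NCOA2 with 5.95%, ZMYM2 with 7.31%, EP300 with 7.70% and ZNF219 with 10.9%.

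The strongest peaks had some of the same partners and some others. Among the 1000 strongest peaks of each list, ZNF74 and ZNF704 each held 33.9% of STAT5A's, SRY 31.8%, ZNF528 31.5% and FOXC1 31.3%, where ZFP91 held 5.80%. STAT5A as a whole shared less than most lists do with each other. Its median share with the 29 lists of at least the same length was 14.1%, and 27 of those 29 had a higher median, up to 28.3%. Its highest share, 21.3%, was exceeded by the highest share of 26 of them.

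**Figure D5:**
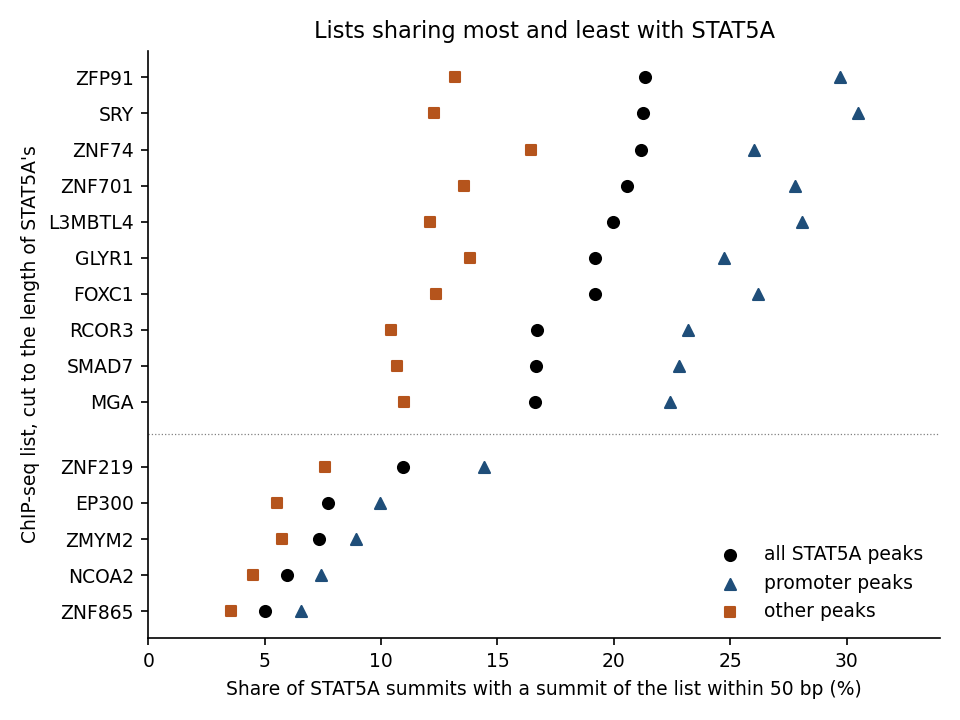
Share of STAT5A summits (%) with a summit of another list within 50 bp, for the 10 lists that shared most and, below the dotted line, the 5 of at least the same length that shared least; all STAT5A peaks (black), promoter peaks (blue triangles) and other peaks (orange squares). The top lists lie between 16.6% and 21.3% of all peaks, and in each list the promoter peaks lie to the right of the other peaks.

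Whether lists called against the same input library shared more with STAT5A was tested over lists. Of the 29 lists at least as long, RCOR3, MEIS1 and MED12 name SL348722 or SL339631 as input. They shared 14.7 ± 1.81% of STAT5A sites (mean ± SD, n = 3 lists), and the other 26 shared 13.8 ± 4.19%. The difference of 0.883 percentage points was smaller than either spread, and a two-sided permutation test with 100000 permutations gave p = 0.72. With 3 lists on one side, the test could only have found a large difference. Of the top partners at the 1000 strongest peaks, ZNF704 and ZNF528 also name SL339631 as input, while ZNF74, SRY and FOXC1 share no input with STAT5A. ZNF704 and ZNF528 are shorter lists and were outside the test, which covered sharing over all peaks. Of the 126 other lists, 19 share an input library with STAT5A.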

How the data were processed

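ChIP-seq peak lists of 127 DAPs in HepG2 were used, all on hg38. Per the labels and the study's methods, the authors made them in house with the ENCODE pipeline as optimal calls against the named inputs. The aligner, peak caller and handling of replicates were not given in the sources used here. Read depth is unknown. In the deposited files, column 7 is the signal of a peak, not scaled between lists. Column 5 is the authors' score and column 9 was treated as a score. Column 10 gives the summit, where positions were read. All peaks lay within the reference chromosomes. Of the STAT5A peaks, 6172 (35.9%) overlapped another STAT5A peak, so peaks are not independent.

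TSSs were those of 38899 canonical protein-coding and lncRNA transcripts of GENCODE 44; a promoter reaches 500 bp to either side. Motifs were exact letter matches within 50 bp of summits and in flanks centred 500 bp away. A summit was shared when another list's lay within 50 bp, with other lists cut to the STAT5A length. For symbols with several gene IDs, 1 protein-coding entry was kept. Named genes were those of 5 lists with a promoter peak, STAT5 targets without one, and the genes nearest to the 10 strongest peaks, the 10 strongest with a STAT site and the 10 strongest unshared ones; named lists were the 10 with the largest share and the 5 with the smallest. Some items that the rule would name are not reported here. Members, gene lists and tests were chosen with earlier results of these data known. The matching, sharing and permutation steps were tested on simulated data. Other window sizes, TSS sets, score cuts and rankings were tried as alternatives. Analyses used Python 3.11.15 with numpy 2.4.6, pandas 2.3.3, scipy 1.17.1 and pysam 0.24.0.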

Additional observations from a re-analysis of the deposited data

How the results depend on the processing

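The promoter share of STAT5A peaks was 58.5% with 1000 bp to either side, 60.04% with the TSS of every transcript and 63.8% for peaks with an authors' score of 830 or more. The STAT site share was 2.62% within 100 bp (4.87% in flanks) and 0.233% for strict sites (0.271% in flanks). Peak midpoints and the stricter score left the STAT site share within its interval. Midpoints are a weak check, because 70.9% of STAT5A peaks had the same width, 584 bp. At the named peaks of this width the summit was the midpoint, so the swap could change little there. The largest share held by another list was 34.9% within 100 bp and 56.9% for overlapping peaks, ZFP91 in both, and 33.9% for the 1000 strongest peaks, in ZNF704 and ZNF74. The difference by shared input became -0.811 percentage points with whole lists (p = 0.81). The p-values over its alternatives ran from 0.73 to 0.81. STAT5 targets with a peak numbered 12 within 10000 bp, where the background was 46.3%, and 4 at a score of 830 or more, where it was 22.4%. With the TSS of every GENCODE transcript, IRF1 was added, at 305 bp.

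Alternatives chosen after seeing the data gave a promoter share of 47.9% and a largest share of 22.9% (SRY) with 1 peak for each of 13980 merged regions, and 56.0% and 23.04% (ZFP91) without chromosomes 16, 17 and 20. No paired analysis was possible because each DAP has 1 list. For the same reason no replicate could be left out.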
